A study of Mus musculus with 4 samples.

Results

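The genes described here are the 37 encoded by mouse mitochondrial DNA, taken as all rows of the deposited table whose symbol starts with mt-, of 52192 distinct gene identifiers in all. They comprise 2 rRNAs, 13 mRNAs and 22 tRNAs, and all 37 were matched by identifier to chromosome M of the mm10 genome. RNA was measured in AML12 cells, a mouse hepatocyte line established from a mouse transgenic for TGF-alpha, that had been infected with lentivirus carrying either a control short hairpin RNA (shCtrl, 2 libraries) or a hairpin against Safb (shSafb, 2 libraries). Both groups were grown with 0.1 uM dexamethasone, an insulin, transferrin and selenium supplement and 10% fetal bovine serum. Both were infected with 200 ul of virus concentrate, had their medium changed after 24 h and were collected on day 5. The sources used here give neither the hairpin sequence nor the number of hairpins against Safb.

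Mitochondrial DNA is a small circle whose strands are called heavy and light. Each strand is copied by the mitochondrial RNA polymerase into a long precursor that carries many genes, and tRNAs that lie between the other genes mark most of the places where the precursor is cut. The protein products are core subunits of the respiratory chain and of ATP synthase, and the rRNAs and tRNAs serve the mitochondrial ribosome that makes them. Hepatocytes depend on this machinery for fatty acid oxidation and for the ATP used in gluconeogenesis and urea synthesis.

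Values are in TPM, a transcript abundance per gene length that sums to a fixed total in each library, so the read depth is unknown and every change is relative to the other RNAs. In bulk RNA, fewer cells of a type and less RNA per cell cannot be told apart. Safb itself was 23.8 and 23.3 TPM in the shCtrl libraries and 15.8 and 15.02 TPM in the shSafb libraries, which did not overlap. All 13 hepatocyte markers examined averaged at least 1 TPM, but they did not move together: Trf was at 2453 and 2418 TPM in shCtrl and 6814 and 6778 TPM in shSafb, Afp was at 2.25 and 2.08 TPM in shCtrl and 27.7 and 26.9 TPM in shSafb, and Alb was at 378 and 345 TPM in shCtrl and 122 and 127 TPM in shSafb. Without Trf, the markers summed to 7709 and 7558 TPM in shCtrl and 7326 and 7177 TPM in shSafb. Of markers of other cells, 1 of 7 for fibroblasts and stellate cells (Des), 0 of 5 for endothelium and 0 of 7 for blood cells did, and each of these lists summed to between 0.0196 and 3.47 TPM in every library, with Lrat, Lyve1, Cdh5, Kdr, Adgre1, Clec4f, Cd3e and Hbb-bs listed at 0 in all 4. Since no label says that replicates came from separate cultures, the spread behind each p-value is that of these 4 libraries and may be technical.

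The question addressed was which RNAs differ in level when Safb, a nuclear protein that binds RNA and chromatin, is depleted. The 37 mitochondrial rows together held 8447 and 7030 TPM in the shCtrl libraries and 3184 and 3426 TPM in the shSafb libraries, a 2.34-fold lower mean. Of these rows, 27 were lower in both shSafb libraries than in either shCtrl library, 2 were higher (mt-Tk and mt-Atp6) and 8 overlapped. The mean over the 4 libraries reached 1 TPM, the level required for testing, in 30 rows. Among these 30, 24 were lower without overlap, 0 higher and 6 overlapped, where 39.3% of all tested genes lay lower and 35.5% higher without overlap. On log2(scaled TPM + 1), limma called 20 of these 30 lower in shSafb at a Benjamini-Hochberg adjusted p under 0.05 and 0 higher (also 0 at an unadjusted p under 0.05). In the same fit, 22.4% of all 13111 tested genes were called lower and 21.9% higher. All 20 called, of the 30 tested, fell by at least 1.5-fold on that scale. Of all 13111 tested genes, 2938 were called lower, and 1408 (10.7% of those tested) were called lower with such a fall. The median log2 change was -1.04 over the 30 and 0.00 over all tested genes. By class, 2 of 2 tested rRNAs, 10 of 12 tested mRNAs and 8 of 16 tested tRNAs were called lower. The tested tRNAs include mt-Tv, mt-Ta and mt-Td, whose shSafb means were under 1 TPM and which passed the filter only through the shCtrl libraries. Without these 3, 18 of 27 RNAs and 6 of 13 tRNAs were called lower. By strand, 17 of 22 heavy-strand and 3 of 8 light-strand products were. Strand and class are mixed here, since tRNAs make up 7 of the 8 light-strand products and 9 of the 22 heavy-strand ones. Among tRNAs, 6 of 9 heavy-strand and 2 of 7 light-strand ones were called lower. The counts by strand include mt-Tv and mt-Td, both among the called heavy-strand tRNAs, and mt-Ta, among the uncalled light-strand ones. Part of the strand contrast was thus built in by the filter, and no strand difference is read from these counts.

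**Figure D1:**
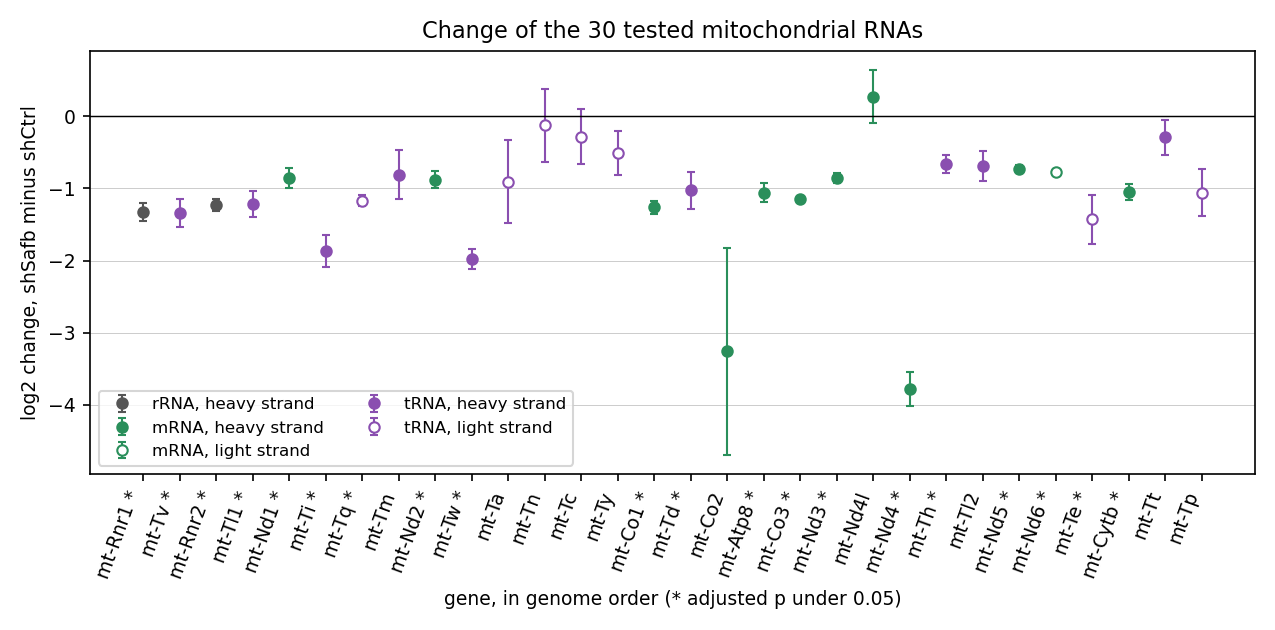
Log2 change (shSafb minus shCtrl, y axis) of the 30 tested mitochondrial RNAs in genome order (x axis), with bars for the standard error from limma. Filled points are heavy-strand and open points light-strand products, and an asterisk marks an adjusted p under 0.05. Most points lie between -0.5 and -1.5, while mt-Nd4 lies at -3.78 and mt-Nd4l at 0.27.

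The rRNAs were described first because both lie at the start of the heavy-strand transcript. They form the RNA core of the mitochondrial ribosome. mt-Rnr1, the RNA of the small subunit (955 bases, chrM:70-1024), was at 121 and 96.5 TPM in shCtrl and 45.04 and 38.7 TPM in shSafb. It fell 2.60-fold (log2 change -1.33 ± 0.12, the SE; limma adjusted p = 0.00228). mt-Rnr2, the RNA of the large subunit (1582 bases, chrM:1094-2675), was at 1225 and 999 TPM in shCtrl and 474 and 452 TPM in shSafb. It fell 2.40-fold (log2 change -1.23 ± 0.09, limma adjusted p = 0.00133). For both rRNAs the groups were well separated. These levels are what remained after the libraries had been depleted of ribosomal RNA with a kit designed to remove mitochondrial rRNA as well, so they do not give the rRNA level in the cell. mt-Rnr1 stood at 9.87% and 9.66% of mt-Rnr2 in shCtrl and at 9.50% and 8.57% in shSafb.

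Among the mRNAs, 12 are heavy-strand products and mt-Nd6 is the only light-strand one. The subunits of cytochrome c oxidase, the terminal enzyme of the respiratory chain (complex IV), included the most abundant mitochondrial RNA. mt-Co1, which encodes its catalytic subunit (chrM:5328-6872), was at 4980 and 4177 TPM in shCtrl and 1760 and 1977 TPM in shSafb. It fell 2.45-fold (log2 change -1.26 ± 0.09, limma adjusted p = 0.00133). As deposited, it alone made up 72.0% and 72.3% of mitochondrial mRNA TPM in shCtrl and 67.6% and 69.1% in shSafb. With the nuclear copies described below added to every mRNA, its share was smaller. mt-Co1 was then 5499 of 9361 and 4620 of 7858 TPM in shCtrl. In shSafb it was 1955 of 3660 and 2194 of 4004 TPM. mt-Co3 was at 237 and 224 TPM in shCtrl and 101 and 104 TPM in shSafb, a 2.26-fold fall (log2 change -1.14 ± 0.04, limma adjusted p = 5.42e-04). mt-Co2, which encodes the subunit that receives electrons from cytochrome c, was at 47.03 and 38.6 TPM in shCtrl, at 19.2 TPM in shSafb replicate 1 and listed at 0 in shSafb replicate 2. It did not pass the test (limma adjusted p = 0.131), but did with a nuclear copy added, as described below. Its log2 change was -5.44 without shSafb replicate 1 and -1.08 without shSafb replicate 2. Each of these fits holds 1 shSafb library, so the difference between the replicates is left out of its spread.

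mt-Cytb encodes cytochrome b of complex III, the enzyme that passes electrons to cytochrome c. It was at 475 and 373 TPM in shCtrl and 193 and 206 TPM in shSafb, a 2.12-fold fall (log2 change -1.05 ± 0.11, limma adjusted p = 0.00291). mt-Atp8 and mt-Atp6 encode membrane subunits of ATP synthase (complex V). mt-Atp8 was at 13.2 and 11.04 TPM in shCtrl and 4.63 and 5.82 TPM in shSafb. It fell 2.32-fold (log2 change -1.06 ± 0.14, limma adjusted p = 0.00512). Its partner mt-Atp6 was near 0, at 0.0189 and 0.0139 TPM in shCtrl and 3.29 and 0.0252 TPM in shSafb, and was not tested because its mean was under 1 TPM. The higher shSafb mean of mt-Atp6 rests on 1 library, shSafb replicate 1.

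The 43 bases shared by mt-Atp8 and mt-Atp6 are shown, in capitals with 20 bases on each side, because a read from this stretch can be given to either gene (GENCODE transcripts on mm10, plus strand, chrM:7907-7989).
mt-Atp8/mt-Atp6: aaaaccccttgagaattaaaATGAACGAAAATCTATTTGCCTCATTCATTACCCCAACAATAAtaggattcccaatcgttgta

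The remaining 7 mRNAs encode subunits of NADH dehydrogenase (complex I), which takes electrons from NADH. mt-Nd1 was at 448 and 338 TPM in shCtrl and 198 and 225 TPM in shSafb, a 1.86-fold fall (log2 change -0.86 ± 0.13, limma adjusted p = 0.00875). mt-Nd2 was at 219 and 174 TPM in shCtrl and 96.5 and 112 TPM in shSafb, a 1.89-fold fall (log2 change -0.88 ± 0.12, limma adjusted p = 0.00612). mt-Nd3 was at 43.6 and 43.0 TPM in shCtrl and 24.4 and 21.8 TPM in shSafb, a 1.87-fold fall (log2 change -0.85 ± 0.07, limma adjusted p = 0.00204). In each of these 3 genes both shSafb values lay below both shCtrl values. mt-Nd5 was at 259 and 232 TPM in shCtrl and 141 and 149 TPM in shSafb, a 1.69-fold fall (log2 change -0.73 ± 0.06, limma adjusted p = 0.00151), the smallest fold among the mRNAs called lower.

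mt-Nd4 had the largest fold among the called mRNAs, and its size depended on a nuclear copy described below. With that copy the fall was 6.71-fold, or 8.27-fold with the copy weighted by length, in place of 16.3-fold. The mt-Nd4 row was at 94.02 and 73.05 TPM in shCtrl and at 6.38 and 3.88 TPM in shSafb, a 16.3-fold fall (log2 change -3.78 ± 0.23, limma adjusted p = 9.46e-04). Set against its neighbour downstream, mt-Nd4 was 36.3% and 31.4% of mt-Nd5 in shCtrl and 4.53% and 2.60% in shSafb. mt-Nd4l, which precedes mt-Nd4 and overlaps it by 7 bases, was at 2.98 and 0.949 TPM in shCtrl and 1.90 and 2.79 TPM in shSafb. The groups overlapped for mt-Nd4l, which did not pass the test (log2 change 0.27 ± 0.37, limma adjusted p = 0.585), and its sign depended on the processing (-0.64 to 0.76 over 13 alternatives).

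**Figure D2:**
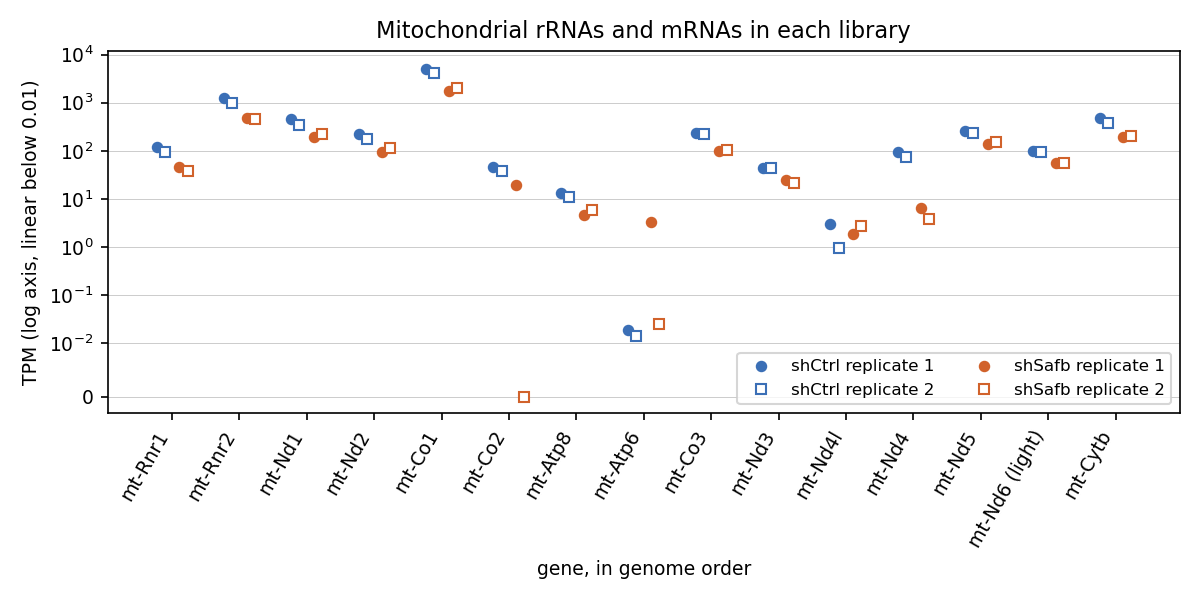
TPM (y axis, log scale above 0.01 and linear below) of the 2 rRNAs and 13 mRNAs in genome order (x axis). Each point is 1 library, blue for shCtrl and orange for shSafb. The orange points lie below the blue ones for most genes, mt-Nd4 has the widest gap, mt-Co2 is listed at 0 in 1 shSafb library and mt-Atp6 lies near 0 in 3 libraries.

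Apart from mt-Nd4 and mt-Nd4l, the complex I mRNAs fell by smaller folds than mt-Co1, mt-Co3, mt-Atp8 and mt-Cytb. This grouping, and the 16 ratios between pairs of genes that were computed, were chosen after the values were seen and are given without a test. mt-Nd1, mt-Nd2, mt-Nd3, mt-Nd5 and mt-Nd6 fell 1.69-fold to 1.89-fold, and mt-Co1, mt-Co3, mt-Atp8 and mt-Cytb fell 2.12-fold to 2.45-fold. With the nuclear copies described below added, mt-Atp6 fell 1.91-fold and mt-Co3 2.06-fold, which lay closer to the complex I genes. No copy of mt-Atp8 was available to add. With mt-Nd4 and mt-Nd4l kept in, the summed mRNAs of complex I fell 1.94-fold and those of complex V 1.77-fold as deposited. With copies added, the sum fell 1.92-fold for complex I and 1.94-fold for complex V. It then fell 2.12-fold for complex III and 2.35-fold for complex IV. Without mt-Nd4, the complex I mRNAs summed to 18.7% and 18.3% of the TPM of the other mRNAs in shCtrl and 24.9% and 24.7% in shSafb. With mt-Co1 also left out of the denominator, the shares were 139% and 137% in shCtrl and 161% and 180% in shSafb, and with nuclear copies added they were 57.9% and 56.8% in shCtrl and 64.6% and 68.0% in shSafb. The 2 groups did not overlap in any of these forms.

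The light-strand mRNA mt-Nd6 (519 bases, chrM:13552-14070, minus strand) encodes a membrane subunit of complex I. It was at 101 and 95.1 TPM in shCtrl and 55.7 and 56.3 TPM in shSafb, and fell 1.75-fold (log2 change -0.77 ± 0.04, limma adjusted p = 8.86e-04). Relative to the summed heavy-strand mRNAs it stood higher in shSafb, at 1.48% and 1.67% in shCtrl and 2.19% and 2.01% in shSafb. That shift was smaller when mt-Co1 was left out of the heavy-strand sum, at 5.47% and 6.30% in shCtrl and 7.06% and 6.78% in shSafb, or 2.68% and 3.02% against 3.38% and 3.21% with nuclear copies added to that sum. Relative to its heavy-strand neighbour mt-Nd5 no shift was seen, since mt-Nd6 was 38.9% and 40.9% of mt-Nd5 in shCtrl and 39.6% and 37.8% in shSafb, with overlapping groups. Against its neighbour on the other side, mt-Cytb, it was 21.2% and 25.5% in shCtrl and 28.9% and 27.3% in shSafb. The libraries kept strand, but whether the counting used it is unstated, and the heavy-strand precursor also runs through mt-Nd6, antisense to it, so without strand the 2 could not be told apart. mt-Nd6 also shares 14 bases with mt-Nd5 on the opposite strand. The light-strand mRNA thus fell by a fold within the range of the heavy-strand complex I mRNAs. An exact two-sided permutation test cannot give a p below 0.333 with 2 libraries a group. None was run, and the ratios are given without a p.

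The ratio of the classes moved less than the classes themselves. Summed rRNA was 1346 and 1095 TPM in shCtrl and 519 and 491 TPM in shSafb, a 2.42-fold fall. Summed mRNA was 6920 and 5781 TPM in shCtrl and 2604 and 2862 TPM in shSafb, a 2.32-fold fall. Summed tRNA was 180 and 154 TPM in shCtrl and 60.7 and 72.8 TPM in shSafb, a 2.51-fold fall. All 3 classes were thus lower in both shSafb libraries. Summed rRNA as a share of summed mRNA was 19.5% and 18.9% in shCtrl and 19.9% and 17.1% in shSafb, with overlapping groups. With the nuclear copies described below added, it was 14.4% and 13.9% in shCtrl and 14.2% and 12.3% in shSafb, also overlapping. The rRNA is what remained after depletion, so these shares do not give the balance of classes in the cell. Summed tRNA as a share of mRNA was 2.61% and 2.67% in shCtrl and 2.33% and 2.54% in shSafb, and this small difference changed sign when geometric means replaced sums (log2 change 0.35 against -0.11).

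**Figure D3:**
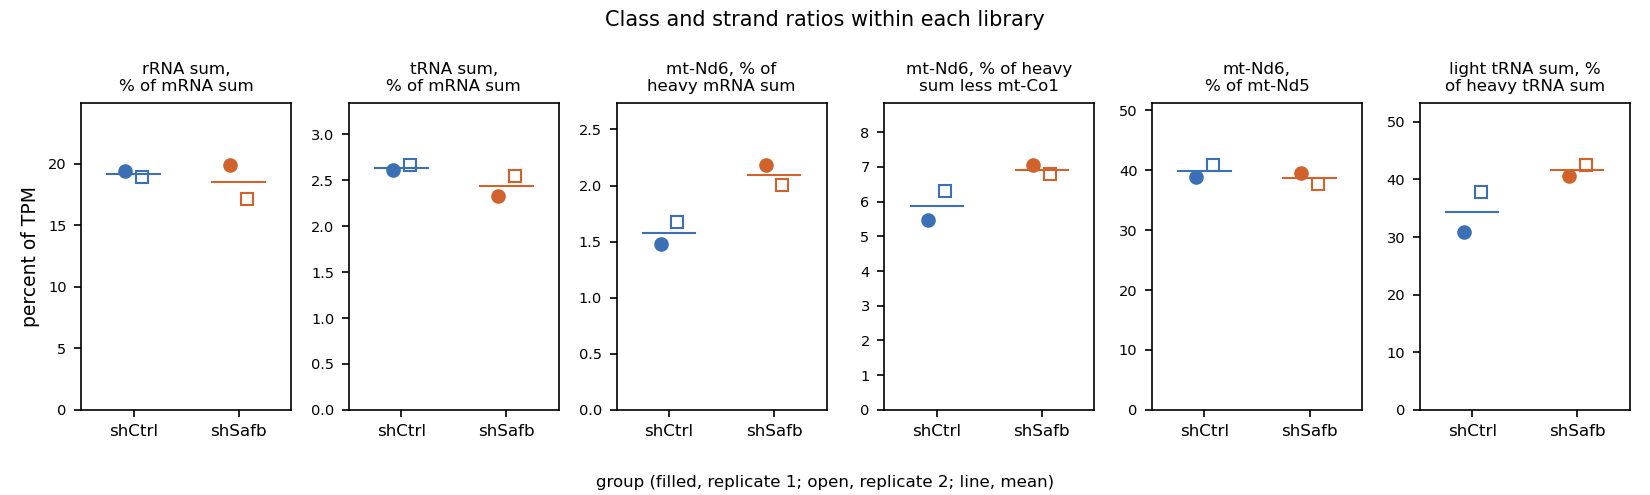
Ratios within each library (y axis, percent, from 0) for the groups shCtrl and shSafb (x axis), with filled points for replicate 1, open points for replicate 2 and lines for means. mt-Nd6 rises against the heavy-strand mRNA sum (means of 1.57% and 2.10%) but not against mt-Nd5 (39.9% and 38.7%), and the rRNA share overlaps between groups.

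The tRNAs are 59 to 75 bases long, each carrying 1 amino acid to the mitochondrial ribosome, and 14 are heavy-strand and 8 light-strand products. Genes this short hold few read positions, and reads from an uncut precursor also cover them. How the authors counted such reads, and whether by strand, is unstated. Shown are the 2 tRNAs of each strand with the highest shCtrl mean (mt-Tw and mt-Tl1, mt-Tq and mt-Tp), with mt-Ti, whose fold was the largest among called tRNAs after that of mt-Tv, and mt-Te, the light-strand tRNA with the largest called fall (GENCODE transcripts on mm10, DNA letters, 5′ to 3′, light-strand genes from the minus strand). Capitals mark the anticodon, found by a search for its triplet after a T and between bases that can pair as a stem (3 of 5 pairs in mt-Tw, at least 4 in the others).
mt-Tw (tryptophan, heavy, chrM:4950-5016): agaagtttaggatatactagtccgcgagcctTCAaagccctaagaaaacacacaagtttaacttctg
mt-Tl1 (leucine, heavy, chrM:2676-2750): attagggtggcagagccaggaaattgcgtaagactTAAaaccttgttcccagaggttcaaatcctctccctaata
mt-Ti (isoleucine, heavy, chrM:3706-3774): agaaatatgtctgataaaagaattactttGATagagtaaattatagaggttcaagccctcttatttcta
mt-Tq (glutamine, light, chrM:3772-3842): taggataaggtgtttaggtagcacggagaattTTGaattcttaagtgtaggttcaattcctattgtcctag
mt-Tp (proline, light, chrM:15356-15422): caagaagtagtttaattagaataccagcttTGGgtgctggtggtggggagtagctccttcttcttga
mt-Te (glutamate, light, chrM:14071-14139): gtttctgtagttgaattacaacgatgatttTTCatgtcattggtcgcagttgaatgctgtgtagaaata

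mt-Tw, the tRNA for tryptophan, had the highest tRNA level, at 52.3 and 38.5 TPM in shCtrl and 10.8 and 10.2 TPM in shSafb. It fell 4.33-fold (log2 change -1.98 ± 0.14, limma adjusted p = 0.00128), more than mt-Nd2, which ends 2 bases inside it. mt-Tw was 23.9% and 22.2% of mt-Nd2 in shCtrl and 11.2% and 9.09% in shSafb, without overlap. mt-Ti, for isoleucine, was at 14.9 and 10.7 TPM in shCtrl and 3.32 and 2.12 TPM in shSafb, a 4.70-fold fall (log2 change -1.87 ± 0.22, limma adjusted p = 0.00412). Its neighbour on the light strand, mt-Tq for glutamine, shares 3 bases with it and was at 15.7 and 15.03 TPM in shCtrl and 6.26 and 6.08 TPM in shSafb, a 2.49-fold fall (log2 change -1.17 ± 0.08, limma adjusted p = 0.00109). mt-Tq was 106% and 141% of mt-Ti in shCtrl and 188% and 287% in shSafb, without overlap.

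mt-Tl1, the leucine tRNA between mt-Rnr2 and mt-Nd1, was at 24.1 and 21.2 TPM in shCtrl and 7.35 and 10.9 TPM in shSafb, a 2.47-fold fall (log2 change -1.22 ± 0.19, limma adjusted p = 0.00831). mt-Tm, for methionine, was at 17.7 and 14.3 TPM in shCtrl and 5.72 and 12.4 TPM in shSafb. Both of its shSafb values were lower, but they differed from each other and the gene did not pass (limma adjusted p = 0.122). Without shSafb replicate 1 its log2 change was -0.31, and without shSafb replicate 2 it was -1.30. mt-Th, for histidine, was at 3.68 and 3.49 TPM in shCtrl and 2.03 and 1.70 TPM in shSafb, a call (limma adjusted p = 0.0153) that was lost without either shCtrl library or without shSafb replicate 2 (0.00970 to 0.0674 over 13 alternatives). mt-Tl2, for leucine, was at 10.8 and 12.1 TPM in shCtrl and 8.19 and 5.30 TPM in shSafb and lay just short of the threshold (limma adjusted p = 0.0539). It passed under 2 other scalings (limma adjusted p = 0.0441 and 0.0461). Its log2 change was -0.96 without shSafb replicate 1 and -0.41 without shSafb replicate 2. mt-Tt, for threonine, was at 8.55 and 6.10 TPM in shCtrl and 4.45 and 7.04 TPM in shSafb, with overlapping groups (limma adjusted p = 0.366).

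mt-Tv, for valine, and mt-Td, for aspartate, are among the 3 tRNAs that reached a mean of 1 TPM only through the shCtrl libraries, so a difference was built into their passing the filter. mt-Tv was at 1.92 and 2.51 TPM in shCtrl and 0.392 and 0.133 TPM in shSafb (limma adjusted p = 0.00765). mt-Td was at 2.38 and 2.13 TPM in shCtrl and 0.264 and 0.972 TPM in shSafb (limma adjusted p = 0.0305), a call lost under 5 of 13 alternatives, among them without either shCtrl library and without shSafb replicate 1 (0.0172 to 0.116).

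Of the 7 tested light-strand tRNAs, 2 were called lower, mt-Tq and mt-Te. mt-Te, for glutamate, was at 4.28 and 6.05 TPM in shCtrl and 0.669 and 2.001 TPM in shSafb (log2 change -1.43 ± 0.34, limma adjusted p = 0.0269), a call lost under 4 of 13 alternatives, among them without either shCtrl library and without shSafb replicate 1 (0.00740 to 0.110). mt-Tp, for proline, was at 9.76 and 8.44 TPM in shCtrl and 5.59 and 2.45 TPM in shSafb and lay just short of the threshold (limma adjusted p = 0.0551). Its log2 change was -1.53 without shSafb replicate 1 and -0.59 without shSafb replicate 2. The tRNAs in the cluster between mt-Tw and mt-Co1 are all read from the light strand, and none of the 4 passed the main test.

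In that cluster, mt-Ta for alanine was at 0.494 and 3.11 TPM in shCtrl and at 0.733 TPM in shSafb replicate 2, and was listed at 0 in shSafb replicate 1 (limma adjusted p = 0.256; 0.0491 to 0.784 over 13 alternatives). It is the third tRNA that passed the filter only through shCtrl. mt-Tn for asparagine was at 1.19 and 2.90 TPM in shCtrl and 0.742 and 3.06 TPM in shSafb (limma adjusted p = 0.864). mt-Tc for cysteine was at 4.74 and 2.95 TPM in shCtrl and 1.73 and 4.44 TPM in shSafb (limma adjusted p = 0.577). For these genes the replicates of 1 group differed by more than the group means did. mt-Ty for tyrosine was at 5.21 and 2.37 TPM in shCtrl and 1.92 and 2.46 TPM in shSafb (limma adjusted p = 0.240). Its log2 change was -0.09 without shCtrl replicate 1 and -0.93 without shCtrl replicate 2. The summed light-strand tRNAs were 42.6 and 42.4 TPM in shCtrl and 17.5 and 21.7 TPM in shSafb, against 138 and 112 TPM and 43.2 and 51.1 TPM for the heavy-strand tRNAs. The light-strand sum was 30.9% and 37.9% of the heavy-strand sum in shCtrl and 40.6% and 42.6% in shSafb. The groups did not overlap, and the log2 change of the ratio was 0.28, against 0.0928 without the most abundant tRNA of each strand.

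The 7 rows under a mean of 1 TPM were mt-Atp6 and 6 tRNAs. The row nearest to the filter was mt-Ts1, the light-strand tRNA for serine, at 1.17 and 1.55 TPM in shCtrl and 0.630 and 0.520 TPM in shSafb. mt-Tf, for phenylalanine, was at 0.519 and 0.406 TPM and mt-Tr, for arginine, at 0.442 and 0.205 TPM in shCtrl, and both were listed at 0 in both shSafb libraries. mt-Tk, for lysine, was listed at 0 in shCtrl and was at 0.146 and 0.0782 TPM in shSafb. mt-Tg, for glycine, ranged from 0.0112 to 0.338 TPM and mt-Ts2, for serine, from 0.172 to 0.206 TPM over the 4 libraries, with overlapping groups.

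**Figure D4:**
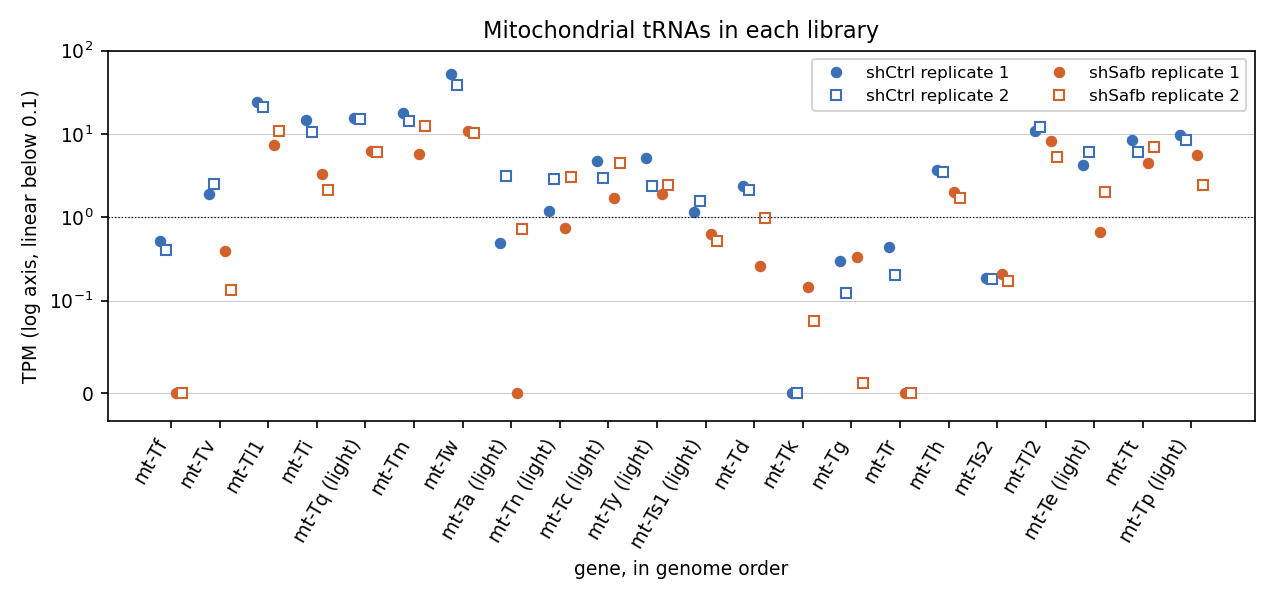
TPM (y axis, log scale above 0.1 and linear below) of the 22 tRNAs in genome order (x axis), 1 point per library, blue for shCtrl and orange for shSafb. The dotted line marks 1 TPM. mt-Tw is the highest, the groups are apart for mt-Ti, mt-Tq and mt-Tl1, and they overlap in the light-strand cluster from mt-Ta to mt-Ty.

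Several of these levels are divided with copies of mitochondrial DNA in the nuclear genome. Chromosome 1 carries 7 pseudogenes (from 24611535 to 24616197 on mm10, minus strand) that match the transcripts of mt-Co1 to mt-Nd4 at 99.7% to 100% identity, in the same order as on chromosome M from 6390 to 11042. A read that covers none of the few differing bases cannot be assigned to either copy by its sequence. The copies held 2441 and 2078 TPM in shCtrl and 1055 and 1142 TPM in shSafb, which is 22.4%, 22.8%, 24.9% and 24.998% of the TPM of both kinds together. By contrast, 8 other pseudogenes with 90.7% to 97.6% identity summed to 0.578 to 1.38 TPM.

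How little separates the copies is shown by mt-Nd3 and Gm28438, which differ at 1 of 345 aligned bases, T3C counted from the 5′ end of mt-Nd3. The differing base is in capitals (chrM:9459-9481, plus strand, and chr1:24613097-24613119, minus strand, mm10).
mt-Nd3: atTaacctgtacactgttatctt
Gm28438: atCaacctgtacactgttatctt

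The copies changed the picture for single genes. Gm10925, identical to mt-Atp6 over 678 bases, was at 151 and 116 TPM in shCtrl and 63.9 and 72.4 TPM in shSafb, so it held 95.1% or more of the pair's TPM in every library. Added together, mt-Atp6 and its copy fell 1.91-fold (log2 change -0.89 ± 0.12, limma adjusted p = 0.00585). Gm28661, identical to mt-Co2 over 681 bases, was at 272 and 209 TPM in shCtrl and 107 and 118 TPM in shSafb. With it, mt-Co2 was at 319 and 248 TPM in shCtrl and 126 and 118 TPM in shSafb, a 2.32-fold fall (log2 change -1.17 ± 0.11, limma adjusted p = 0.00254). Both pairs were thus lower in both shSafb libraries, which the mt-Atp6 row alone was not, and both passed the test.

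Gm28437, the copy of mt-Co3, held 82.2% to 84.5% and Gm28438, the copy of mt-Nd3, 85.6% to 88.0% of their pairs' TPM over the 4 libraries. With copies, mt-Co3 fell 2.06-fold and mt-Nd3 1.81-fold. Gm29216 matches 483 bases at the end of mt-Co1 and held 9.44% to 9.99%, and with it mt-Co1 fell 2.44-fold. These shares differed little between libraries, unlike that of mt-Nd4. Its copy Gm28439, which matches the 876 bases at the start of mt-Nd4, was at 18.7 and 17.1 TPM in shCtrl and 10.5 and 9.46 TPM in shSafb, a 1.80-fold fall. Its share of the pair was 16.6% and 19.0% in shCtrl and 62.2% and 70.9% in shSafb. With the copy added, mt-Nd4 was at 113 and 90.2 TPM in shCtrl and 16.9 and 13.3 TPM in shSafb, a 6.71-fold fall in place of 16.3-fold (log2 change -2.64 ± 0.15, limma adjusted p = 8.49e-04). The copy is shorter than mt-Nd4, and with the copy weighted by length the fall was 8.27-fold (log2 change -2.92 ± 0.16). Gm10222, the copy of mt-Nd4l, was at 9.95 TPM in shCtrl replicate 1 and between 0.184 and 0.264 TPM in the other 3 libraries.

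**Figure D5:**
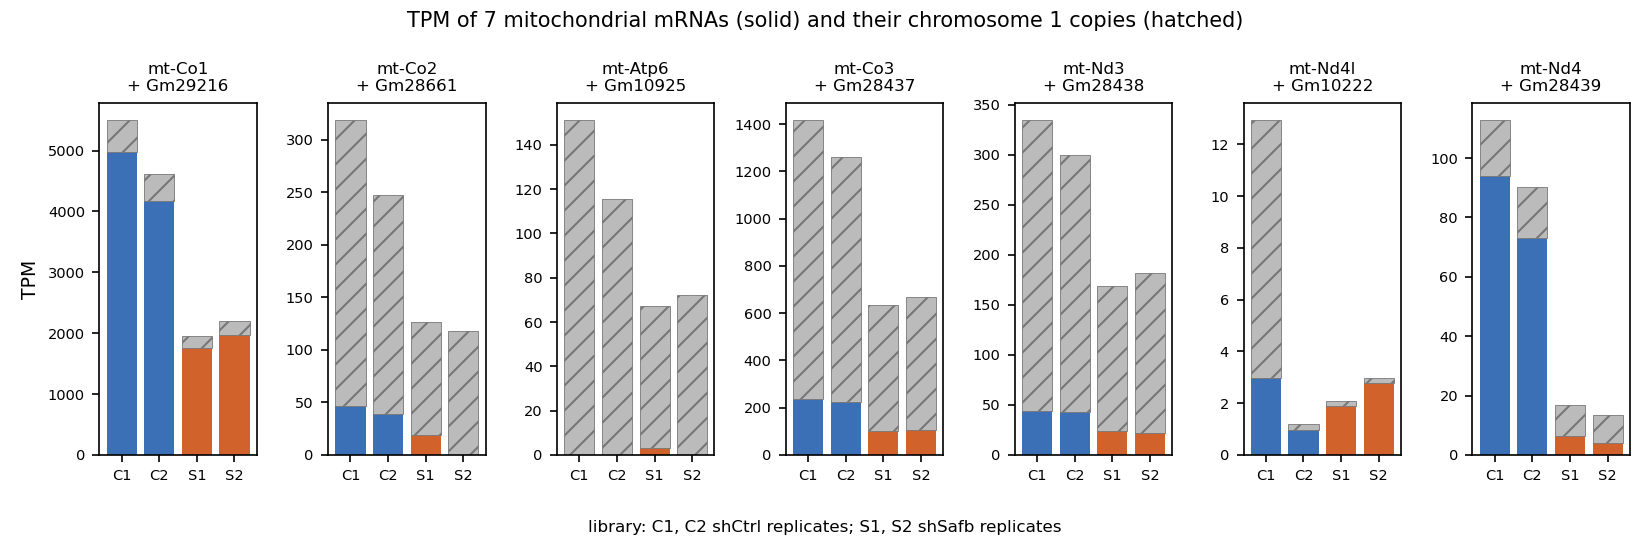
TPM (y axis, from 0) of 7 mitochondrial mRNAs (solid, blue for shCtrl and orange for shSafb) with their chromosome 1 copies stacked on top (grey, hatched), for each library (x axis, C1 and C2 shCtrl, S1 and S2 shSafb). The summed bars are lower in shSafb for 6 pairs, while mt-Nd4l with Gm10222 is high only in C1, and the copy takes most of the mt-Nd4 pair only in S1 and S2.

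With copies added, 22 of 31 tested mitochondrial RNAs were called lower and 0 higher. Of all 13105 genes tested in that fit, 2935 were called lower and 2866 higher. Among heavy-strand mRNAs the copies lowered the fold of the whole sum from 2.34-fold to 2.25-fold. The 5 tRNAs that lie inside the copied stretch (mt-Ts1, mt-Td, mt-Tk, mt-Tg and mt-Tr) had shCtrl means of 0 to 2.25 TPM, with a median of 0.323 TPM. The other 17 tRNAs had shCtrl means of 0.184 to 45.4 TPM, with a median of 5.16 TPM. mt-Atp8 (chrM:7766-7969) also lies inside the copied stretch, and no annotated copy of it was available to add. Whether nuclear copies took reads from mt-Atp8 or from the tRNAs inside the stretch was not tested.

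The nuclear-encoded subunits of the same complexes were called higher in larger number than lower in each list, where 21.9% of all tested genes were called higher and 44.3% either way. The share called either way was 48.6% for complex I, near that of all genes, 77.8% for complex III, 84.6% for complex IV and 55.6% for complex V. Of nuclear complex IV genes, 9 of 13 tested were called higher and 2 lower, with a median log2 change of 0.27 (4 to 7 higher and 2 lower without each library in turn). Cox5a, an inner subunit, rose from 61.8 and 67.9 TPM to 222 and 204 TPM (limma adjusted p = 7.82e-04), and Cox7c and Cox5b also rose (log2 changes 0.51 and 0.49). With copies added, mitochondrial complex IV mRNAs summed to 148% and 122% of the nuclear ones in shCtrl and 44.3% and 49.3% in shSafb. Of nuclear complex V genes, 10 of 18 were higher and 0 lower by limma (median 0.26; 1 lower at an unadjusted p under 0.05; 6 to 9 higher and 0 to 1 lower without each library in turn, the 1 without shCtrl replicate 2), among them Atp5g3, a subunit of the membrane ring, which rose from 128 and 116 TPM to 205 and 204 TPM. Of complex I genes, 13 of 37 were higher and 5 lower (median 0.16; 7 to 12 and 3 to 4 without each library in turn), with Ndufa9 and Ndufv3 among the lower ones (log2 changes -0.53 and -0.53). Of complex III genes, 5 of 9 were higher and 2 lower (median 0.19; 2 to 3 and 2 without each library in turn), and Uqcr10 fell from 423 and 460 TPM to 217 and 198 TPM (limma adjusted p = 0.00151).

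Nuclear genes for making and handling mitochondrial RNA went both ways. Of those for mitochondrial DNA copying and transcription, 4 of 26 tested were higher and 6 lower (38.5% called, against 44.3% of all tested genes; median log2 change -0.03), and 2 higher and 1 to 2 lower without each library in turn. Rrm2b, a ribonucleotide reductase subunit that supplies nucleotides, rose by 1.06 ± 0.10 on the log2 scale. Nrf1, a transcription factor for nuclear genes of mitochondrial function, rose by 0.51 ± 0.06. Mterf2, of the mitochondrial termination factor family, fell by 0.44 ± 0.08, a call lost without shCtrl replicate 1 or either shSafb library. Of RNA processing, modification and stability genes, 9 of 46 were higher and 9 lower (39.1% called, median -0.02), and 4 to 6 higher and 3 to 5 lower without each library in turn. Elac2, the enzyme that cuts precursors at the 3′ end of tRNAs, rose by 0.64 ± 0.06 and Mettl8, a tRNA methyltransferase, fell by 0.92 ± 0.10.

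Outside the rule for named genes, 4 factors were added for their role. Polrmt, the mitochondrial RNA polymerase, was at 12.9 and 11.1 TPM in shCtrl and 12.2 and 11.9 TPM in shSafb, with overlapping groups (limma adjusted p = 0.809). Tfam, which packages mitochondrial DNA and activates its promoters, was at 18.1 and 16.9 TPM in shCtrl and 13.6 and 12.7 TPM in shSafb (limma adjusted p = 0.0179, lost without any 1 of the 4 libraries, 0.0145 to 0.0849). Lrpprc, which stabilises mitochondrial mRNAs, was at 39.5 and 42.3 TPM in shCtrl and 31.2 and 29.6 TPM in shSafb (limma adjusted p = 0.0162, lost without shCtrl replicate 2 or either shSafb library, 0.00947 to 0.0727). Its binding partner Slirp was at 13.7 and 9.83 TPM in shCtrl and 8.83 and 13.3 TPM in shSafb, with overlapping groups (limma adjusted p = 0.843).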

How the data were processed

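The deposited values are TPM, 1 per gene and library, computed by the authors. HISAT2, HTSeq, StringTie, DESeq2 and mm10 are named in the submitters' processing notes without versions or order, and the sources used here do not give how strand and reads with several matches were treated. Per the labels' protocols, total RNA was depleted of rRNA and made into strand-specific libraries. TPM keeps no counts, so depth is unknown.

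Of 52200 rows, 6 identifiers on several rows were summed. The test was run on the 13111 genes whose TPM averaged 1 or more. Libraries were scaled by the median ratio to the geometric mean, and log2(scaled TPM + 1) was fitted with limma 3.58.1 (R 4.3.3, group only, intensity trend, two-sided, Benjamini-Hochberg adjusted p under 0.05). The fit was first run on simulated data with few changed genes and independent normal noise. That run does not cover rows at or near 0 or a change in many genes. Log2 changes are shSafb minus shCtrl ± SE and understate the change of low genes. Folds are ratios of mean deposited TPM.

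Class, strand, coordinates and sequences came from GENCODE mouse release 21 on GRCm38 (mm10). Heavy-strand products are those on the plus strand. Nuclear copies were found with BLAST 2.17.0, and copies of at least 99% identity over 90% of their length were used. Every mt- row is accounted for. Of each nuclear list, up to 3 genes with the smallest p could be named. The members and lists were chosen with earlier results of these data known. Alternatives covered pseudocount, filter, scaling, trend, replicate block, left-out libraries, a fold of 1.5 and nuclear copies.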

Additional observations from a re-analysis of the deposited data

How the results depend on the processing

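Of the 20 mitochondrial RNAs called lower, 17 stayed called in all of 13 alternative fits and 3 (mt-Td, mt-Th and mt-Te) lost the call in some, and none of the 20 changed sign. The count of mitochondrial RNAs called lower was 17 to 22 without each library in turn, 19 with a pseudocount of 0.1, 19 with no filter and 22 with nuclear copies added, and the count called higher was 0 throughout. Over all tested genes, 2867 were higher and 2938 lower. The counts were 1754 to 2151 higher and 1970 to 2161 lower without each library in turn, and 1303 and 1408 when a 1.5-fold change was required too. A fit without 1 library holds only 1 library in that group, so the spread of that group is not in it. Calls gained in such a fit are no support for a fall. Adding copies with a length weight and leaving mt-Co1 out of the heavy-strand sum were chosen after seeing the data.

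With the replicate number as a block, 22 mitochondrial RNAs were lower and 0 higher, and 2540 of all genes were higher and 2686 lower. Deviations of same-numbered libraries correlated at -0.0641 over genes. This single value cannot tell whether same-numbered libraries were paired. The block added the calls of mt-Ta (limma adjusted p = 0.0491) and mt-Tp (0.0263).

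Among uncalled genes, the log2 change turned sign without some library for mt-Tn (-0.73 to 0.49, positive without shCtrl replicate 2 or shSafb replicate 1), mt-Tc (-0.78 to 0.21, positive without shSafb replicate 1), mt-Nd4l (-0.23 to 0.76, negative without shCtrl replicate 2), Polrmt (-0.0492 to 0.103, negative without shCtrl replicate 2) and Slirp (-0.33 to 0.21, positive without shCtrl replicate 1 or shSafb replicate 1). That of mt-Nd4l also turned with copies added (-0.64) and with copies added by length (-0.63). In each case the cause was not tested.

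Log2 changes of sums moved with geometric means of TPM + 1, which give low genes equal weight: from -1.22 to -0.93 for all members, from -1.33 to -0.78 for tRNAs, from -1.23 to -0.98 for the heavy and from -0.89 to -0.77 for the light strand. Without the most abundant member they were -1.03 for mRNAs, -1.12 for tRNAs and -1.12 for the light strand. The rRNA to mRNA ratio (-0.05) was -0.34 without the most abundant members, -0.18 with geometric means and -0.16 to 0.0543 without each library in turn, positive only without shSafb replicate 2. The tRNA to mRNA ratio (-0.11) was 0.35 with geometric means. The ratio of light-strand to heavy-strand mRNA (0.41) was 0.24 without mt-Co1, and that of the tRNAs (0.28) was 0.0928 without the most abundant members and 0.00622 with geometric means.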

Other observations

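Of the nuclear genes for mitochondrial aminoacyl-tRNA synthetases, the enzymes that charge the mitochondrial tRNAs, 3 of 22 tested were higher and 2 lower in shSafb (22.7% called, against 44.3% of all tested genes), with a median log2 change of -0.01. Mars2, the methionine enzyme, rose from 1.62 and 1.77 TPM to 3.37 and 3.38 TPM (limma adjusted p = 0.0110, lost without either shSafb library). Gars, the glycine enzyme shared with the cytosol, rose by 0.21 ± 0.04 on the log2 scale, and Ears2, the glutamate enzyme, fell by 0.37 ± 0.08, and both calls were lost without either shSafb library, that of Ears2 also without shCtrl replicate 1 and that of Gars also with no intensity trend. Without each library in turn, 0 to 3 of the list were higher and 0 to 1 lower.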
